A study of Mus musculus with 36 samples.

Results

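The genes described here are 9 core genes of the T helper 1 (Th1) programme: Tbx21, Hlx, Stat4, Ifng, Ifngr1, Il12rb1, Il12rb2, Il18r1 and Il18rap. They were chosen by gene symbol, and all 9 were found among the 56748 genes of the count table. Their RNA was measured in splenic CD4+ T cells of 2 mouse lines of mixed 129/Sv and C57BL/6 background. In the HP1a line, knock-out (KO) mice carried a germ-line deletion of Hp1a, made by crossing a floxed allele with CMV-cre mice, and wild-type (WT) cells came from littermates. In the HP1g line, the deletion of Hp1g was driven by Cd4-cre and thus limited to T cells, and WT cells came from littermates with floxed Hp1g alleles and no Cre. HP1α and HP1γ bind methylated histone H3 in heterochromatin. Naive cells were CD4+ T cells with high CD62L and low CD44, taken straight from these mice. Tconv were such cells after transfer into irradiated hosts together with bone marrow, part of it syngeneic and part semi-allogeneic, from whose spleens they were sorted by a receptor chain, Vβ6, typical of cells that respond to the allogeneic marrow. For Tconv with Treg, regulatory T cells (Treg) of WT origin, expanded in culture, had been co-injected and were gated out at the sort by a surface tag. Neither the number of Treg given nor the age of the mice is in the labels. With 2 lines, 2 genotypes and 3 conditions there were 12 groups, each of 3 libraries apart from HP1g KO Tconv with Treg, where 2 were used because the authors dropped replicate 3 after checking its reads.

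Th1 cells arise when a naive CD4+ T cell meets its antigen together with interleukin 12 (IL-12) and interferon γ. IL-12 acts through a receptor of 2 chains, Il12rb1 and Il12rb2, and the factor STAT4, while interferon γ acts through its receptor, of which Ifngr1 is the ligand-binding chain, to induce T-bet, the master factor encoded by Tbx21. T-bet acts with the homeobox factor Hlx on Ifng, and IL-18, through Il18r1 and its accessory chain Il18rap, raises interferon γ output further. In graft rejection Th1 cells are a main source of interferon γ, and Treg restrain them.

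Library totals ran from 37029519 to 63042245 estimated counts per library, with a median of 46844690. Levels are given in CPM, counts scaled to the size of the library with TMM factors. The libraries were made from picogram amounts of RNA. The labels do not say that replicates came from separate animals, so p-values measure the spread between these libraries. CD4 T cell markers (Cd4, Cd3e and 6 others) were present in all groups, at a summed level of 6250 to 10600 CPM per library. Of the CD8 T cell markers, Cd8a reached at most 1.64 CPM in any library, while Cd8b1 averaged 20.8 to 26.7 CPM in the naive and 4.19 to 6.64 CPM in the grafted groups. The 8 NK cell markers summed to 3.47 to 7.16 CPM in naive and 34.4 to 300 CPM in grafted libraries. Of these Ncr1, which defines NK cells, stayed at or under 1.22 CPM, whereas Klrg1 and Eomes, which T cells can also express, reached group means of 83.5 and 159 CPM. Klrb1c averaged 0.0309 to 0.0819 CPM in the naive and 3.34 to 11.1 CPM in the grafted groups. Tyrobp reached a group mean of 19.6 CPM and Klra7 one of 1.29 CPM. Myeloid and erythroid genes were present at levels that differed between groups and are given beside the results.

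Per the GENCODE annotation of GRCm39, Tbx21 (ENSMUSG00000001444) lies on chromosome 11 from 96988897 to 97006158, Ifng (ENSMUSG00000055170) on chromosome 10 from 118276951 to 118281797, and Ifngr1 (ENSMUSG00000020009) on chromosome 10 from 19467697 to 19485977. Il18r1 (ENSMUSG00000026070, from 40504712 to 40540014) and Il18rap (ENSMUSG00000026068, from 40554522 to 40590865) are neighbours on chromosome 1. Stat4 (ENSMUSG00000062939, from 52026307 to 52151423) and Hlx (ENSMUSG00000039377, from 184458496 to 184465842) lie further along the same chromosome. Il12rb2 (ENSMUSG00000018341) is on chromosome 6 from 67268302 to 67353172, and Il12rb1 (ENSMUSG00000000791) on chromosome 8 from 71261093 to 71276183. Il12rb2 overlaps the protein-coding gene Serbp1 on the opposite strand, Hlx an antisense RNA, and Ifng and Stat4 overlap non-coding genes. The libraries did not mark the strand, and the strand setting of the counting is not given in the sources used here. Reads within such overlaps thus cannot be assigned to a gene by strand.

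The upstream sequences of 3 members are shown as examples of the behaviour described below. Ifng rose most on activation and was called lower with Treg in no genotype. Il12rb2 and Ifngr1 were both lower with Treg without overlap in 3 of the 4 genotypes, and Ifngr1 had the largest fall with Treg in HP1a WT. Each sequence is the 250 bases before the RefSeq transcript start in GRCm38.p6, written 5′ to 3′ on the strand of the gene. Matches to the STAT motif TTCNNNGAA are in capitals.
Ifng, chr10:118440796-118441045 (plus strand): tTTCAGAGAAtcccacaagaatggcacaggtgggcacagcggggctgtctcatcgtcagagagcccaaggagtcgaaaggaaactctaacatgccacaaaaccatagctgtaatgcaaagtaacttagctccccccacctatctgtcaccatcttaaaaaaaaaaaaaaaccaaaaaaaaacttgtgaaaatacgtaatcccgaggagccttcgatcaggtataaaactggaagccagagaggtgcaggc
Il12rb2, chr6:67376189-67376438 (minus strand): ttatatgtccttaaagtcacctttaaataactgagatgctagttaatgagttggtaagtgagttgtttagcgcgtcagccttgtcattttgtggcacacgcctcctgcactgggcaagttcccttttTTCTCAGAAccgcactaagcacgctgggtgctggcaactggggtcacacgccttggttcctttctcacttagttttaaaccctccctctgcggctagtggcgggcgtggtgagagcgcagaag
Ifngr1, chr10:19591699-19591948 (plus strand): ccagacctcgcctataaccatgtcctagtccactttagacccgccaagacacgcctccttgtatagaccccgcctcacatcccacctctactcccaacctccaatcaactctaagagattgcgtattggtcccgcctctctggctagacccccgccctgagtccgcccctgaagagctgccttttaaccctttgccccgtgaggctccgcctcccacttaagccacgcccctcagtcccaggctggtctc
The window of Ifng held 1 match, which began 249 bases before the start, the window of Il12rb2 held 1, which began 123 bases before it, and that of Ifngr1 held none. In windows from 250 bases before to 50 bases after the start, searched on both strands, 3 of the 11 windows of the 8 members in RefSeq's table (3 for Il18r1, 2 for Stat4 and 1 for each other) held the STAT motif, those of Ifng and Il12rb2 and 1 of Il18r1, against 8.3% of all 32851 windows. The T-box core GGTGTGA was found in none of the 11 and in 3.98% of all windows, the AP-1 motif TGANTCA in none and in 7.81%, and the RUNX core TGTGGT in 2 (1 each of Il18r1 and Il18rap) and in 16.8%. These are counts of letters in short windows, not of bound sites.

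All 9 members were higher in Tconv than in naive cells of the same line and genotype, but by very different factors. In HP1a WT, Ifng had 12 counts in the 3 naive libraries together (95% exact Poisson interval 6.2 to 21, which covers counting error only) and a mean of 421 CPM in Tconv, a ratio of the pooled levels of 5570 (3190 to 10800). Tbx21, with 33 naive counts, was 1110 times higher (789 to 1610). Il18rap was 302 times (253 to 364) and Il12rb2 146 times (101 to 222) higher. The other members started from a measurable naive level. Il12rb1, the chain shared by the receptors for IL-12 and IL-23, rose from 1.75 ± 0.307 to 86.9 CPM (log2 fold change 5.64, SE 0.22, edgeR adjusted p 7.03e-07). Il18r1 rose from 28.7 ± 3.91 to 142 CPM (2.31, SE 0.15, edgeR adjusted p 1.12e-05). Ifngr1 rose from 183 ± 31.6 to 822 CPM (2.18, SE 0.21, edgeR adjusted p 0.00011), and Stat4 rose from 126 ± 12.8 to 232 CPM (0.90, SE 0.10, edgeR adjusted p 0.00016, SD over 3 libraries throughout). Hlx stayed near the detection limit: 21 naive counts and a mean of 0.698 CPM in Tconv, a ratio of 5.24 (3.43 to 8.47).

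In the other genotypes Ifng again rose most (log2 fold change 10.64 in HP1a KO, 11.52 in HP1g WT and 11.18 in HP1g KO) and Stat4 least (0.50, 0.84 and 0.99). A member was called where its Benjamini-Hochberg adjusted p from edgeR's quasi-likelihood test over all genes tested fell under 0.05 with a log2 fold change beyond 1 in either direction. By this rule 8 of 9 members were higher in Tconv in each of the 4 genotypes, with Stat4 short of the fold. Of all genes tested 12.9%, 12.4%, 15% and 15.7% were called higher (23.1%, 19.7%, 23.5% and 23.1% in either direction) in HP1a WT, HP1a KO, HP1g WT and HP1g KO. In all 4 genotypes the naive and Tconv libraries of each of the 9 members did not overlap, which held in this direction for 29.5%, 28.7%, 27.4% and 27.5% of all genes. Naive Ifngr1 was at 156 to 303 CPM in the 12 naive libraries, so this gene, unlike Ifng or Tbx21, was already well expressed before activation.

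**Figure D1:**
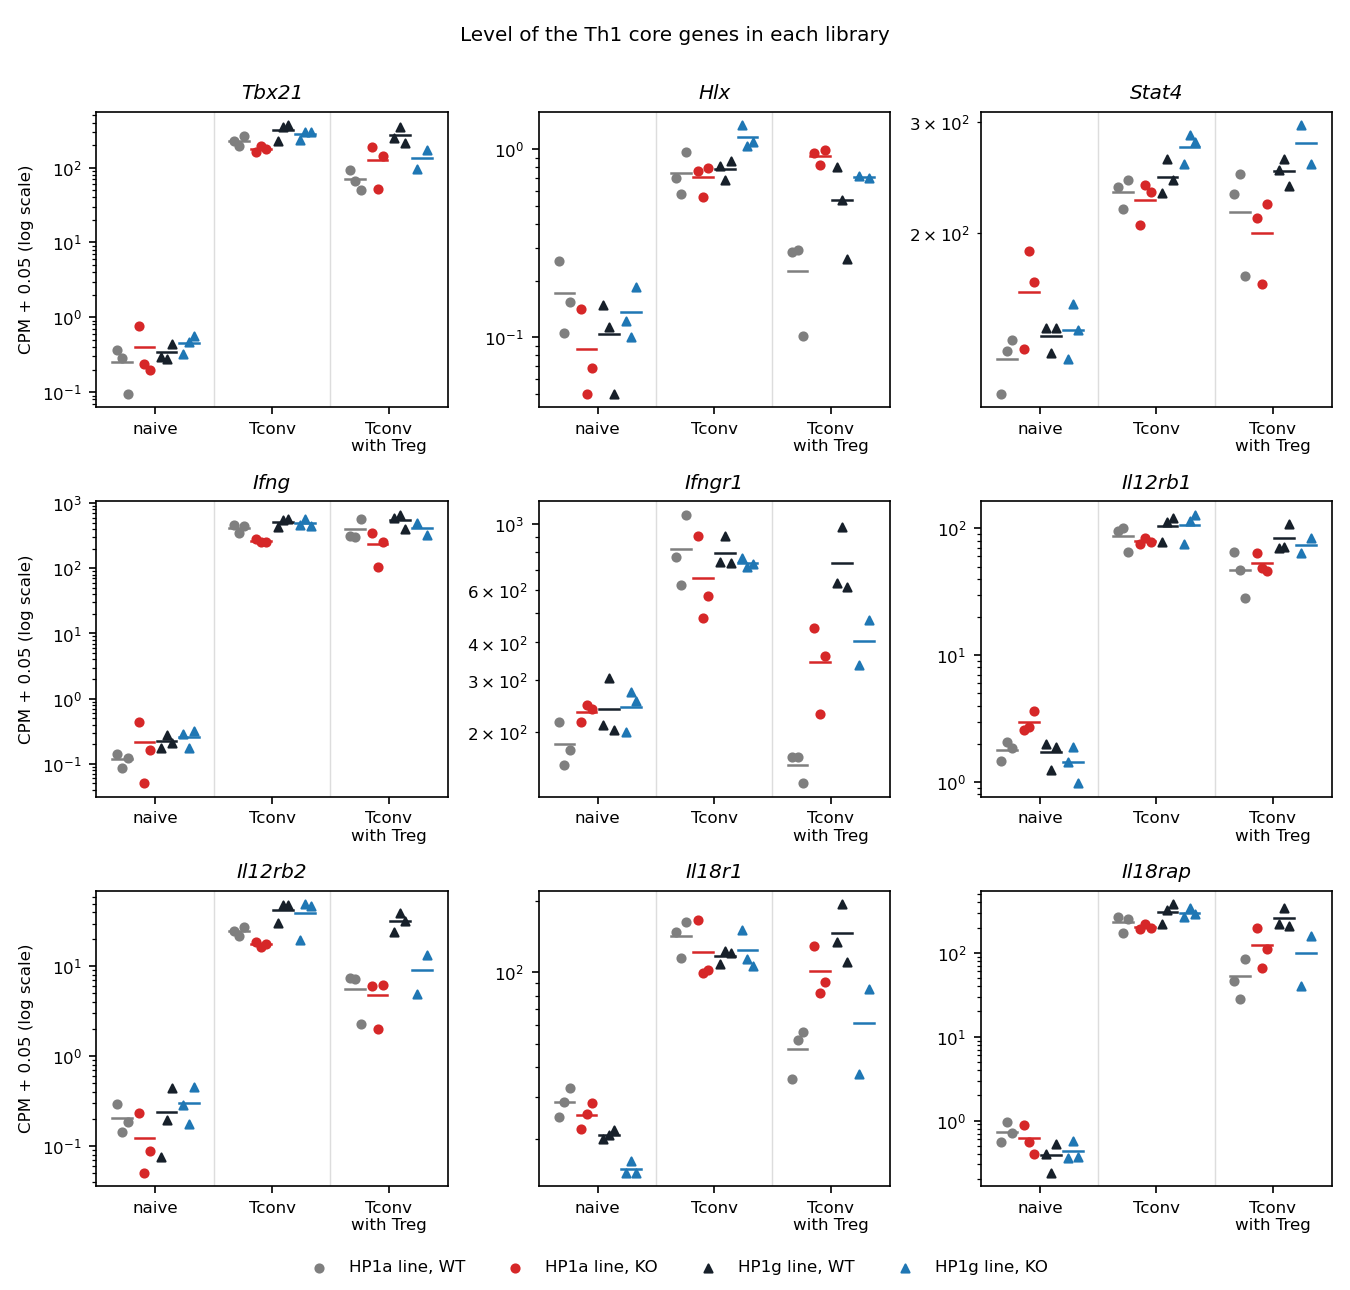
Level of each member in every library, 1 panel per gene. The y axis is CPM + 0.05 on a log scale set for each panel, points are libraries, short bars are group means, and groups run from naive to Tconv and Tconv with Treg in each line and genotype. Ifng climbs from below 1 CPM to above 100 CPM in all grafted groups, whereas Tbx21, Il12rb2, Il18r1, Il18rap and Ifngr1 drop again with Treg in HP1a WT.

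Per kilobase of exon, the members of HP1a WT Tconv ranked as Ifng (325 CPM per kb), Ifngr1 (289), Tbx21 (92.4), Il18rap (34.4), Il18r1 (28.8), Stat4 (25.9), Il12rb1 (14), Il12rb2 (6.54) and Hlx (0.213). The 2 chains of the IL-18 receptor were thus near each other, while of the IL-12 receptor chains Il12rb2 was below Il12rb1. Across the 12 groups the order of mean levels often could not be resolved. Of the 11 steps between neighbouring groups, mean ± SD did not overlap at 3 for Il12rb2 and Il18r1, at 2 for Tbx21 and Il12rb1, at 1 for Ifng, Il18rap and Ifngr1, and at none for Stat4 and Hlx. For Tbx21 the HP1g WT Tconv ranked first and the steps that stood apart were those below HP1a WT Tconv and below HP1a WT Tconv with Treg, the latter being the lowest grafted group. For Ifng that group ranked 6 of 12, and the only step apart was the one between the grafted and the naive groups. For Ifngr1 HP1a WT Tconv with Treg ranked last of all, below the mean of every naive group, though by less than the spread for the lowest of these.

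With Treg in the host, 5 of the 9 members fell in HP1a WT cells, and Ifng was not among them. Tbx21 was at 230, 197 and 262 CPM in the 3 Tconv libraries and at 92.4, 65.3 and 50.8 CPM in those with Treg. Ifngr1 was at 773, 622 and 1070 CPM without and at 166, 166 and 135 CPM with Treg. In both genes every library with Treg lay below every library without, and for Ifngr1 the mean with Treg, 156 CPM, was near the naive one. Ifngr1 fell by 2.38 on the log2 scale (SE 0.23, 95% interval −2.92 to −1.85, edgeR adjusted p 0.00199) and Tbx21 fell by 1.71 (SE 0.24, interval −2.27 to −1.15, edgeR adjusted p 0.0076).

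The receptors for IL-18 and IL-12 were lower too. Il18r1, which binds IL-18, was at 148, 115 and 162 CPM in Tconv and at 35.7, 52.1 and 56 CPM with Treg. Its accessory chain Il18rap was at 271, 174 and 251 CPM against 46.1, 28.1 and 85 CPM. Il12rb2, the signalling chain of the IL-12 receptor, was at 25, 21.9 and 27.4 CPM against 7.31, 7.23 and 2.23 CPM. None of these 3 genes overlapped between the groups. Il18r1 fell by 1.54 (SE 0.23, edgeR adjusted p 0.0091), Il18rap fell by 2.10 (SE 0.41, edgeR adjusted p 0.0232) and Il12rb2 fell by 2.13 (SE 0.43, edgeR adjusted p 0.0261) on the log2 scale. Il12rb1 was at 95.5, 99.9 and 65.2 CPM without and 64.5, 46.9 and 28.1 CPM with Treg, below without overlap and short of the test (log2 fold change −0.89, interval −1.60 to −0.17, edgeR adjusted p 0.142). Hlx, at 0.235, 0.24 and 0.0519 CPM with Treg, was likewise short of it (−1.95, interval −3.60 to −0.29, edgeR adjusted p 0.161).

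Ifng, like Stat4, stood apart from the 5 members that were called lower. Ifng was at 467, 349 and 448 CPM in HP1a WT Tconv and at 315, 303 and 568 CPM with Treg, so that the highest of the 6 libraries was 1 with Treg. Its log2 fold change was −0.07 with a 95% interval of −0.71 to 0.58 (edgeR adjusted p 0.908), which does not reach the fall of Tbx21. Stat4, the IL-12 signal transducer, was at 236, 218 and 242 CPM against 230, 248 and 171 CPM (−0.09, interval −0.48 to 0.30, edgeR adjusted p 0.793). Of the 9 members 5 were called lower and none higher, where 2.43% of all genes were called lower and 5.96% in either direction, and 7 of 9 lay below without overlap, where 18.7% of all genes did. The median log2 fold change was −1.71 over the members and 0.03 over all genes tested. DESeq2 called the same 5 members, where it called 9.26% of all genes. When single libraries were left out, Tbx21 and Ifngr1 were called in 6 of 6 fits, while Il12rb2 and Il18rap were lost in 4 (without HP1a WT Tconv replicate 1, 2 or 3, or HP1a WT Tconv with Treg replicate 1) and Il18r1 in 2 (without HP1a WT Tconv replicate 1 or 3), so that 2 to 5 members were called. In bulk RNA, fewer cells of a type and less RNA per cell cannot be told apart.

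Other transcripts moved in the same libraries. CD4 T cell markers summed to 9160 to 9920 CPM with Treg and 7670 to 8130 CPM without. Of these Cd3e, Cd3d, Cd3g and Trbc2 were higher with Treg without overlap. Cd4 (1030 and 1050 CPM), Cd28 (568 and 524 CPM), Cd5 (433 and 437 CPM) and Lck (1600 and 1890 CPM) overlapped. The summed Treg markers were at 1060 to 1340 CPM with Treg and 803 to 1090 CPM without, with 10 of 10 markers above a mean of 1 CPM in both groups and Foxp3 itself at 13.5 to 69.2 CPM against 4.4 to 12.1 CPM. NK cell markers summed to 121 to 300 CPM with Treg and 48.3 to 65.3 CPM without, with 5 and 3 of 8 markers above a mean of 1 CPM. Klra4 was at 0 in all 6 libraries and Klra8 in the 3 without Treg. Of this list Eomes, a T-box factor that CD4 T cells can also express, accounted for 82 to 265 CPM with Treg. Klrb1c averaged 11.1 CPM with Treg and 3.73 CPM without, Tyrobp 3.93 and 0.622 CPM, and Klra7 1.29 and 0.0141 CPM. Klrg1 (15.5 and 38.6 CPM) and Ncr1 (0.00866 and 0.147 CPM) were lower with Treg. Myeloid markers summed to 26.1 to 60.2 CPM with Treg and 7.12 to 8.65 CPM without, with 7 and 4 of 10 above a mean of 1 CPM and none at 0. Erythroid markers summed to 2.66 to 50 CPM and 1.8 to 3.44 CPM, with 4 and 1 of 6 above a mean of 1 CPM. Their part in the result was not tested.

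**Figure D2:**
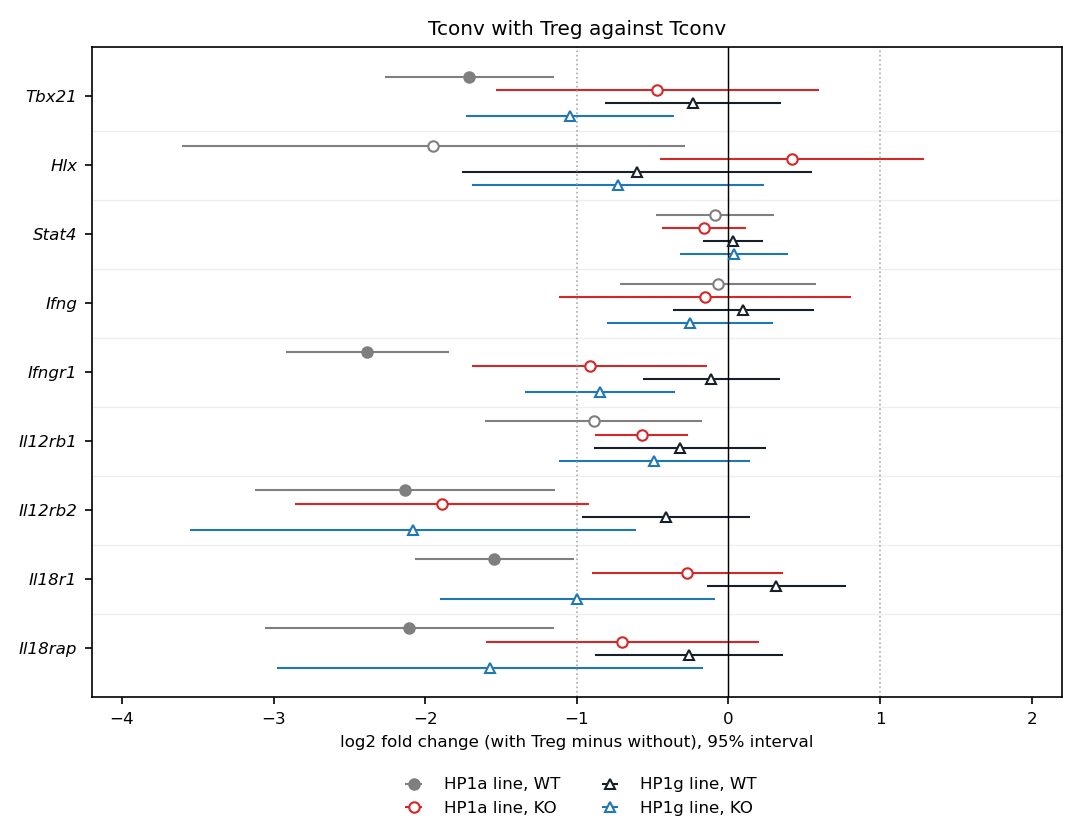
Log2 fold change of each member between Tconv with Treg and Tconv, with its 95% interval, in the 4 genotypes. Filled points were called (edgeR adjusted p under 0.05 and log2 fold change beyond 1). In HP1a WT 5 intervals lie wholly below −1, in HP1g WT all 9 include 0.

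In HP1a KO cells the same comparison called no member by edgeR, where 0.44% of all genes were called, 3 members had an unadjusted p under 0.05, and DESeq2 called 1 (Il12rb2), with 2.68% of all genes. Il12rb2 was at 18.6, 16.2 and 17.9 CPM in Tconv and at 5.98, 1.94 and 6.18 CPM with Treg, again without overlap (log2 fold change −1.89, interval −2.86 to −0.92, edgeR adjusted p 0.101). Ifngr1 was at 911, 484 and 570 CPM without and at 446, 230 and 359 CPM with Treg (−0.92, interval −1.69 to −0.14, edgeR adjusted p 0.249). Tbx21 was at 160, 195 and 179 CPM without and at 188, 51.2 and 144 CPM with Treg, so that the groups overlapped and replicate 2 stood far below the others (−0.47, interval −1.53 to 0.60). The same library had the lowest Ifng (105 CPM against 347 and 252) and the lowest Il18rap (65.6 CPM against 197 and 112). In total 3 members lay below without overlap (Il12rb1, Il12rb2 and Ifngr1), where 12.4% of all genes did, and Hlx lay above, where 10.2% did. Treg markers summed to 711 to 937 CPM with Treg and 982 to 1040 CPM without (10 of 10 above a mean of 1 CPM in both), and CD4 T cell markers to 7420 to 8080 CPM and 6810 to 7190 CPM, neither overlapping. Myeloid markers summed to 175 to 539 CPM and 13.9 to 183 CPM (10 of 10 above a mean of 1 CPM in both, none at 0), while NK cell markers (61.9 to 86.3 CPM and 34.4 to 96.3 CPM) and erythroid markers (112 to 703 CPM and 26.4 to 770 CPM) overlapped widely. Their part in the result was not tested.

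In HP1g WT cells no member was called between Tconv with and without Treg. Of this experiment the paper states that Treg, at the ratio given, did not effectively repress the response of WT cells. Ifngr1 was at 745, 911 and 738 CPM without and at 631, 971 and 612 CPM with Treg (log2 fold change −0.11, interval −0.56 to 0.34). Tbx21 was at 230, 351 and 368 CPM against 248, 351 and 210 CPM (−0.23, interval −0.81 to 0.35). Il12rb2 was at 30.5, 48.7 and 47.8 CPM against 24.2, 39.2 and 32.1 CPM, and Il18r1 at 108, 123 and 120 CPM against 134, 193 and 111 CPM, so that both overlapped. No member was called by edgeR, where 0.0126% of all genes were, no member had an unadjusted p under 0.05, and DESeq2 called none, where it called 0.294% of all genes. All 9 members overlapped between the groups, where 13.4% of all genes did not. For the 5 members that fell in HP1a WT, the intervals in HP1g WT lay above −1, the lowest bound being −0.97 for Il12rb2.

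In HP1g KO cells, with 2 libraries with Treg, several members lay lower, short of the test by edgeR. Il12rb2 was at 19.8, 49.2 and 47.5 CPM in Tconv and at 4.88 and 13.2 CPM with Treg (log2 fold change −2.08, interval −3.55 to −0.61, edgeR adjusted p 0.535). Tbx21 was at 236, 295 and 303 CPM against 95.3 and 171 CPM (−1.04, interval −1.73 to −0.36, edgeR adjusted p 0.503). Il18rap was at 270, 343 and 294 CPM against 40.5 and 160 CPM (−1.57, interval −2.98 to −0.17, edgeR adjusted p 0.627), and Ifngr1 at 769, 717 and 732 CPM against 335 and 476 CPM (−0.85, interval −1.34 to −0.35, edgeR adjusted p 0.503). In each of these 4 genes replicate 1 with Treg was the lowest library and no library overlapped. Ifng, at 469, 568 and 445 CPM against 490 and 328 CPM, overlapped (−0.26, interval −0.80 to 0.29). EdgeR called no gene of any kind in this comparison (0%), while 5 members had an unadjusted p under 0.05, DESeq2 called 2 (Tbx21 and Il12rb2, with 1.53% of all genes), and 6 of 9 members lay below without overlap, where 12% of all genes did. Without replicate 2 with Treg, edgeR called 21 genes, 1 of them a member. Treg markers summed to 1510 and 893 CPM with Treg and 599 to 869 CPM without (10 and 8 of 10 above a mean of 1 CPM) and CD4 T cell markers to 8430 and 7710 CPM against 7000 to 7320 CPM, neither overlapping. Replicate 1 with Treg also had the higher erythroid (6100 CPM, 112 CPM in replicate 2), NK cell (251 and 69.4 CPM) and myeloid sums (232 and 83.8 CPM), where the libraries without Treg had 159 to 3330 CPM, 95.8 to 164 CPM and 44.2 to 104 CPM. Of the NK cell markers Eomes averaged 136 CPM with Treg and 36.8 CPM without, and Klra7 0.488 and 0.112 CPM. Klrg1 (12.7 and 79.3 CPM) and Ncr1 (0.119 and 0.5 CPM) were lower with Treg without overlap, while Klrb1c (6.95 and 7.23 CPM) and Tyrobp (4.05 and 3.65 CPM) were close. Their part in the result was not tested.

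Whether WT cells of the HP1a and the HP1g line responded differently to Treg was tested as an interaction. It was −2.28 for Ifngr1 (SE 0.31, interval −2.97 to −1.60, edgeR adjusted p 0.00642) and −1.87 for Il18r1 (SE 0.32, interval −2.56 to −1.18, edgeR adjusted p 0.0142). These 2 members were called, where 1.56% of all genes were in either direction and 0.858% in the lower one. Tbx21 missed the threshold (−1.49, interval −2.27 to −0.71, edgeR adjusted p 0.0599), as did Il18rap (−1.85, edgeR adjusted p 0.0997) and Il12rb2 (−1.73, edgeR adjusted p 0.11). DESeq2 called all 5, where it called 4.54% of all genes. With single libraries left out 1 to 4 members were called: Ifngr1 was called in 12 of 12 fits, and Il18r1 in 11, being lost without HP1a WT Tconv replicate 3. Neither Ifng (−0.18, interval −0.99 to 0.63) nor Stat4 (−0.13, interval −0.53 to 0.27) reached it. The line, the experiment and any difference in Treg dose cannot be told apart here. Erythroid markers also differed between the lines, at a summed 1.8 to 50 CPM in HP1a WT and 75.7 to 4960 CPM in HP1g WT grafted libraries. Myeloid markers summed to 26.1 to 60.2 CPM with Treg and 7.12 to 8.65 CPM without in HP1a WT. In HP1g WT they summed to 102 to 118 CPM and 25.9 to 321 CPM. Of the NK cell markers, DESeq2 but not edgeR called the interaction for Eomes (3.05), Tyrobp (2.59) and Klrb1c (2.50), while Klrg1 (−0.70) and Ncr1 (−2.79) were negative and not called. The part of these markers in the result was not tested.

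By edgeR, loss of HP1α or HP1γ moved no member past the test in any condition. DESeq2 called some members in KO against WT with Treg in both lines, as given below. In HP1a Tconv all 9 log2 fold changes of KO against WT were negative, with the largest for Ifng. It was at 283, 252 and 255 CPM in KO and 467, 349 and 448 CPM in WT (−0.68 on the log2 scale, SE 0.12, interval −0.94 to −0.41, edgeR adjusted p 0.185). Il12rb2 (18.6, 16.2 and 17.9 CPM in KO against 25, 21.9 and 27.4 CPM in WT, −0.49, edgeR adjusted p 0.468) and Tbx21 (160, 195 and 179 CPM against 230, 197 and 262 CPM, −0.36, edgeR adjusted p 0.549) also lay below without overlap. These 3 of 9 compare with 7.97% of all genes. EdgeR called none of the members and 0.103% of all genes, 3 members had an unadjusted p under 0.05, and DESeq2 called none and 1.05% of all genes. Of Ifng, DESeq2's adjusted p was 1.43e-05, at a fold below the threshold. Myeloid markers summed to 13.9 to 183 CPM in KO and 7.12 to 8.65 CPM in WT (10 and 4 of 10 above a mean of 1 CPM, none at 0), and erythroid markers to 26.4 to 770 CPM and 1.8 to 3.44 CPM. CD4 T cell markers summed to 6810 to 7190 CPM in KO and 7670 to 8130 CPM in WT, without overlap. Cd8a averaged 1.51 CPM in KO and 0.0984 CPM in WT and was called higher (log2 fold change 3.905, edgeR adjusted p 0.0173), while Cd8b1 overlapped. The part of these markers in the result was not tested.

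With Treg, Ifngr1, Il18r1 and Hlx were higher in every HP1a KO library than in every WT library, short of the test by edgeR, and Ifng was not. Ifngr1 was at 446, 230 and 359 CPM in KO and at 166, 166 and 135 CPM in WT. Il18r1 was at 129, 81.6 and 91.4 CPM in KO and at 35.7, 52.1 and 56 CPM in WT, and Hlx at 0.904, 0.77 and 0.944 CPM against 0.235, 0.24 and 0.0519 CPM. In these 3 members every KO library lay above every WT library, as it did for 11.7% of all genes. The log2 fold changes were 1.13 for Ifngr1 (interval 0.56 to 1.70, edgeR adjusted p 0.131), 1.05 for Il18r1 (interval 0.48 to 1.63, edgeR adjusted p 0.146) and 2.27 for Hlx (interval 0.50 to 4.05, edgeR adjusted p 0.297). Tbx21 (188, 51.2 and 144 CPM against 92.4, 65.3 and 50.8 CPM) and Il18rap (197, 65.6 and 112 CPM against 46.1, 28.1 and 85 CPM) were high in 2 of the 3 KO libraries and overlapped in replicate 2. Ifng was at 347, 105 and 252 CPM against 315, 303 and 568 CPM (−0.78, interval −1.81 to 0.25). Il12rb2 was low in both genotypes (−0.26, interval −1.65 to 1.12). EdgeR called none of the 9 (0.123% of all genes), 4 had an unadjusted p under 0.05, and DESeq2 called Il18r1 and Ifngr1 (3.69% of all genes). Myeloid markers stood at 175 to 539 CPM in KO and 26.1 to 60.2 CPM in WT, with 10 and 7 of 10 above a mean of 1 CPM and none at 0, and erythroid markers at 112 to 703 CPM and 2.66 to 50 CPM. Treg markers stood at 711 to 937 CPM in KO and 1060 to 1340 CPM in WT, NK cell markers at 61.9 to 86.3 CPM and 121 to 300 CPM (4 and 5 of 8 above a mean of 1 CPM, Eomes averaging 37.8 and 159 CPM), and CD4 T cell markers at 7420 to 8080 CPM and 9160 to 9920 CPM, none of these sums overlapping. Of the NK cell markers Klrb1c (3.34 and 11.1 CPM), Klra7 (0 and 1.29 CPM) and Klra8 (0.0143 and 0.134 CPM) were also lower in KO. Klrg1 (16.1 and 15.5 CPM) was close, while Tyrobp (19.6 and 3.93 CPM) and Ncr1 (0.083 and 0.00866 CPM) were higher. Of the CD4 T cell markers Cd4 (979 and 1030 CPM), Cd28 (638 and 568 CPM), Cd5 (556 and 433 CPM) and Lck (1690 and 1600 CPM) overlapped. The part of these markers in the result was not tested, and myeloid cells also express Ifngr1.

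In the HP1g line 5 members lay lower in KO than in WT cells with Treg, again short of the test by edgeR. With Treg, Il12rb2 was at 4.88 and 13.2 CPM in KO and at 24.2, 39.2 and 32.1 CPM in WT (log2 fold change −1.80, interval −2.93 to −0.67, edgeR adjusted p 0.242). Tbx21 was at 95.3 and 171 CPM against 248, 351 and 210 CPM (−1.003, interval −1.80 to −0.20, edgeR adjusted p 0.319). Il18r1 was at 37.4 and 84.8 CPM against 134, 193 and 111 CPM (−1.24, interval −2.23 to −0.25, edgeR adjusted p 0.32). Il18rap (40.5 and 160 CPM against 219, 341 and 210 CPM) and Ifngr1 (335 and 476 CPM against 631, 971 and 612 CPM) lay below as well, so that 5 of 9 members did not overlap, where 14.2% of all genes lay below in this way. EdgeR called no gene at all (0%), but 362 genes, 2 of them members, when HP1g KO replicate 2 was left out, and none when any of the other 4 was. With all 5 libraries 4 members had an unadjusted p under 0.05, and DESeq2 called Tbx21, Il12rb2 and Il18r1 (3.24% of all genes). Il18r1 was not lower with the left-out library put back, where its log2 fold change was 0.20. Myeloid markers summed to 83.8 to 232 CPM in KO and 102 to 118 CPM in WT, and erythroid markers to 112 to 6100 CPM and 154 to 3480 CPM. Treg markers summed to 893 to 1510 CPM and 665 to 852 CPM, NK cell markers to 69.4 to 251 CPM and 49 to 124 CPM, and CD4 T cell markers to 7710 to 8430 CPM and 6740 to 7490 CPM. Of the NK cell markers Eomes (136 CPM in KO and 28.1 CPM in WT), Klrb1c (6.95 and 3.88 CPM) and Klra7 (0.488 and 0.0651 CPM) had higher means in KO. Klrg1 (12.7 and 54.9 CPM, without overlap) and Ncr1 (0.119 and 0.353 CPM) had lower means, and Tyrobp (4.05 and 3.79 CPM) was close. The part of these markers in the result was not tested. Without Treg, the members of KO and WT Tconv were close, with log2 fold changes from −0.17 (Tbx21) to 0.60 (Hlx). None was called by edgeR (0.0437% of all genes) or by DESeq2 (1.36%), none had an unadjusted p under 0.05, and only Hlx did not overlap, lying above as 6.88% of all genes did.

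**Figure D3:**
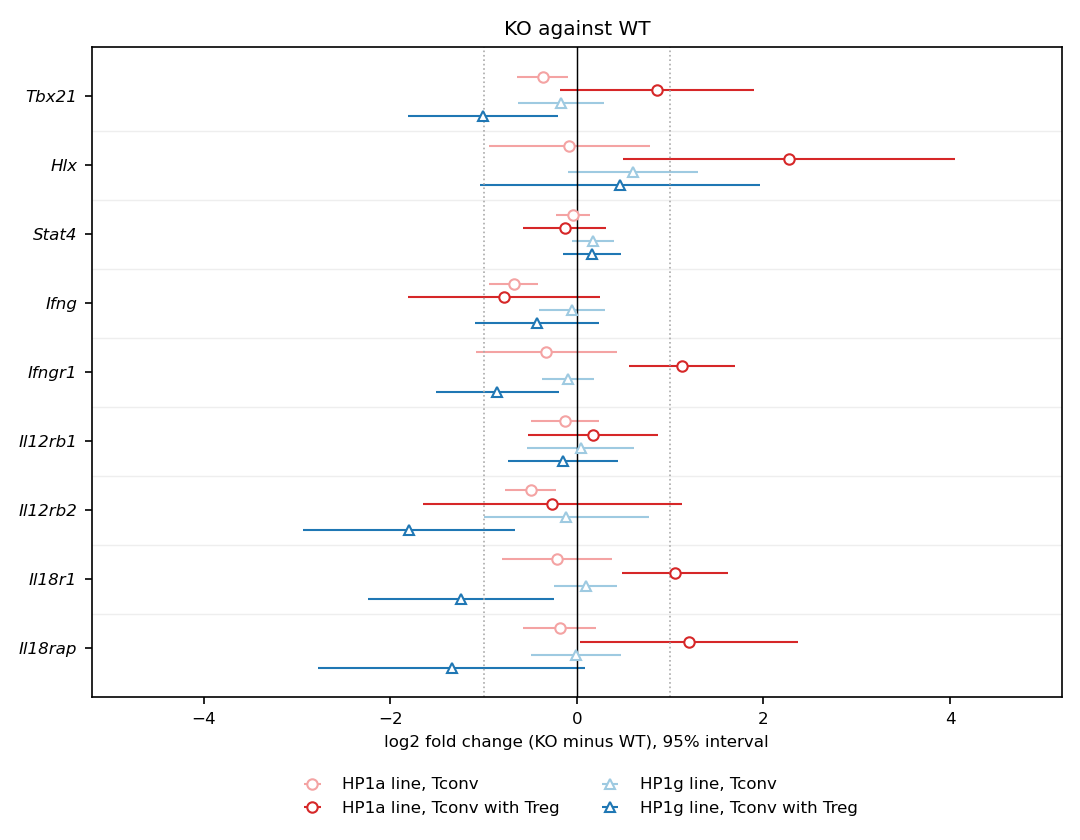
Log2 fold change of each member between KO and WT, with its 95% interval, in Tconv and in Tconv with Treg of both lines. Filled points would be called (edgeR adjusted p under 0.05 and log2 fold change beyond 1), and none is. With Treg, the estimates of Tbx21, Il12rb1, Il18r1, Il18rap and Ifngr1 lie above 0 in the HP1a line and below 0 in the HP1g line. Of these genes only Il18r1 and Ifngr1 have intervals that exclude 0 in both lines.

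The KO effects with Treg differed between the lines for the same 2 receptors. The difference, HP1a line minus HP1g line, was 2.30 for Il18r1 (SE 0.50, interval 1.19 to 3.404, edgeR adjusted p 0.0378) and 1.99 for Ifngr1 (SE 0.40, interval 1.11 to 2.86, edgeR adjusted p 0.0289). These 2 of 9 were called higher, where 0.948% of all genes were and 2.72% in either direction. Il18rap (2.55, edgeR adjusted p 0.147) and Tbx21 (1.87, edgeR adjusted p 0.152) were not, while DESeq2 called all 4 (7.47% of all genes). With single libraries left out Ifngr1 was lost in 6 of 11 fits (without HP1a KO replicate 1 or 3, HP1a WT replicate 1, HP1g KO replicate 1, or HP1g WT replicate 2 or 3) and Il18r1 in 8 (without these, HP1a WT replicate 2 or HP1g WT replicate 1), 0 to 3 members were called, and none was when the left-out library was put back. This comparison and the difference of WT Treg effects share the WT libraries with Treg of both lines, so their values are not independent.

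Whether the Treg effect itself differed between KO and WT was tested within each line. In the HP1a line the difference was positive for 7 of 9 members and largest among well-expressed ones for Ifngr1 (1.47, interval 0.58 to 2.36, edgeR adjusted p 0.203), Il18rap (1.41, interval 0.13 to 2.69) and Il18r1 (1.28, interval 0.49 to 2.06, edgeR adjusted p 0.211). Hlx, at under 1 CPM, had 2.37 (interval 0.67 to 4.06). Ifng had −0.08 (interval −1.19 to 1.03). No member was called by edgeR (0.139% of all genes), 5 had an unadjusted p under 0.05, and DESeq2 called Il18r1, Ifngr1 and Hlx (1.84% of all genes). In the HP1g line the difference was negative for all 9, from −1.69 for Il12rb2 to −0.02 for Stat4. None was called by edgeR (0%) or DESeq2 (0.0645% of all genes), and 3 had an unadjusted p under 0.05.

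In naive cells 6 members in the HP1a line and 7 in the HP1g line had enough counts to be tested for KO against WT. None was called by edgeR (0% and 0.00669% of all genes) or DESeq2 (0.0995% and 0.214%), and 3 and 1 had an unadjusted p under 0.05. One member did not overlap in each line. In the HP1a line Il12rb1 was higher in KO (2.5, 2.65 and 3.6 CPM against 1.42, 2.03 and 1.81 CPM), as 3.36% of all genes were, and in the HP1g line Il18r1 was lower in KO (14.4, 16.2 and 14.4 CPM against 20, 20.7 and 21.8 CPM), as 7.26% were.

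Across the 23 grafted libraries the members fell into genes that varied together and genes that did not. As a description over libraries that share hosts' conditions and depth, with no test, log2 levels of Tbx21 correlated with those of Il12rb2 (Pearson r 0.922), Ifngr1 (0.907) and Il18rap (0.899), and Il18r1 with Il18rap (0.864). Ifng correlated less with Tbx21 (0.556) and Ifngr1 (0.401) and hardly with Il18r1 (0.24) or Hlx (−0.0119). Among 9448 genes, those most like Tbx21 were Fgl2 (0.941), Metrnl (0.933), Trim16 (0.927), Il12rb2 (0.922) and Ttc7b (0.922). Those most like Ifng were Il15ra (0.846), Dapk2 (0.836), Tmem159 (0.815), Chsy1 (0.81) and Aopep (0.807), none of which is a member.

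The wider Th1 network split in HP1a WT cells with Treg. Beside the members, the study's own Th1 list, curated by its authors with a published reference for each gene, had 5 of 60 tested genes called higher and 9 lower, where 3.54% and 2.43% of all genes were, with a median log2 fold change of −0.16. Its largest changes were falls of Mmp9, a secreted matrix protease (from 135 to 3.52 CPM, log2 fold change −5.25), Anxa1, annexin A1 (from 195 to 6 CPM, −5.01), and Ifitm3, an interferon-induced antiviral membrane protein (from 204 to 12.4 CPM, −4.03). These 3 were called in 6 of 6 fits with single libraries left out. Of 18 genes of IL-12, IL-18 and interferon γ receptor signalling, 1 rose (Irf8, 1.53) and 1 fell (Il1rl1, the IL-33 receptor, −2.83), and the median was −0.16. Of 10 other transcription factors linked to Th1 cells 2 rose, Eomes (from 14.1 to 159 CPM, 3.52) and Batf (1.195), and 1 fell (Bhlhe40, −1.10). Eomes and Batf were called in 6 of 6 such fits, while Irf8 was lost without HP1a WT Tconv replicate 2, Il1rl1 without replicate 1 or 2 and Bhlhe40 without replicate 1 or 3 of that group.

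Effector genes did not move one way either. Of 17 effector and homing genes 3 were called higher and 3 lower, beside the 3.54% and 2.43% of all genes given above. The chemokine genes Ccl3 (from 3.72 to 536 CPM, log2 fold change 7.199) and Ccl4 (from 10.3 to 895 CPM, 6.48) and the inhibitory receptor gene Havcr2, which encodes TIM-3 (from 6.01 to 43 CPM, 2.85), rose, and were called in 6 of 6 such fits. Ccl3 was at 286, 260 and 1060 CPM with Treg, so that replicate 3, which also had the highest Ifng, set much of the mean. Of 9 factors and cytokines of other helper fates 2 rose, Il10 (5.38) and Bcl6, the factor of follicular helper cells (2.57), and 2 fell, among them Gata3, the factor of Th2 cells (−1.62). Gata3 was lost without HP1a WT Tconv replicate 3 or HP1a WT Tconv with Treg replicate 1, Il10 without HP1a WT Tconv replicate 1 or 2, and Bcl6 in 4 of 6 fits (without HP1a WT Tconv replicate 1, 2 or 3, or HP1a WT Tconv with Treg replicate 1). The median of this list was 1.996. In HP1g WT cells none of these lists had a called gene, by edgeR or by DESeq2, and their medians lay between −0.22 and 0.12. Unadjusted p-values under 0.05 numbered 9 of 63 in the study's list, 2 of 18, 1 of 10, 3 of 17 and 3 of 11 in the others, in the order given.

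**Figure D4:**
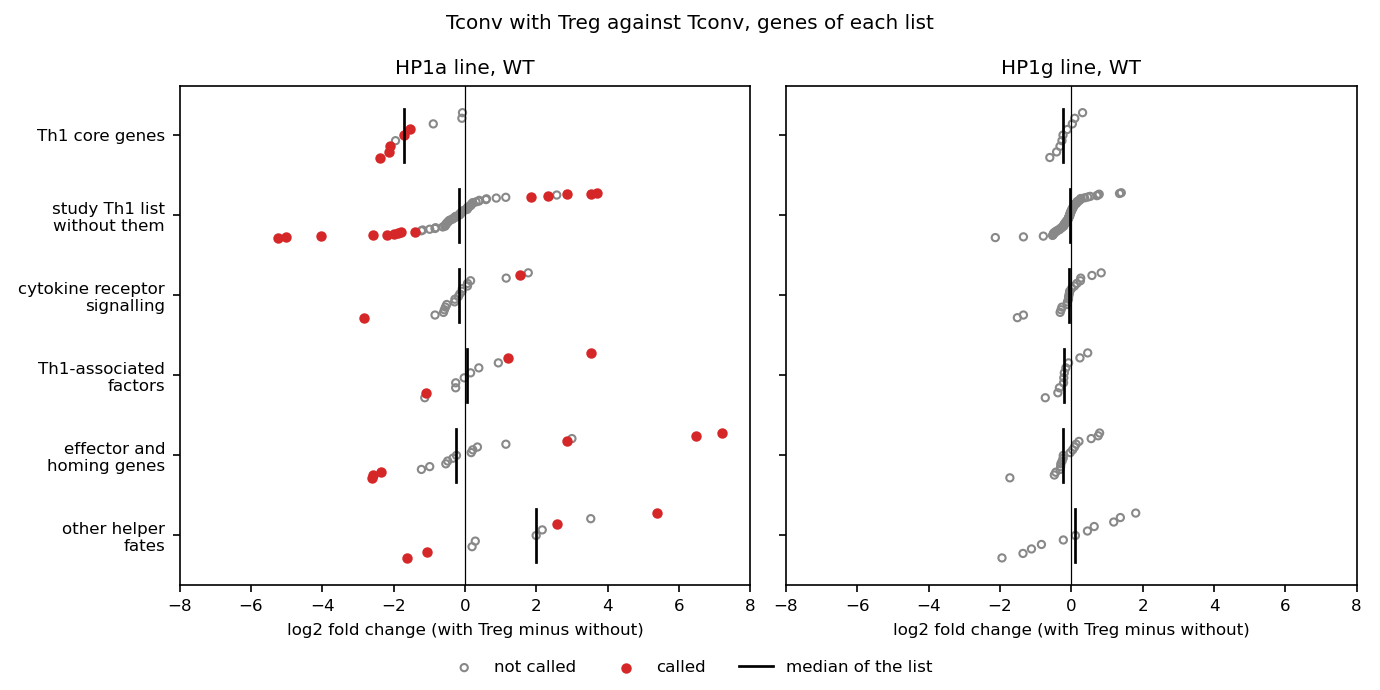
Log2 fold change of each tested gene between Tconv with Treg and Tconv, for the 9 members and the 5 other lists, in HP1a WT and HP1g WT cells. Points are genes, red points were called, and black lines are list medians. In HP1a WT the members have the lowest median of the 6 lists, −1.71, whereas in HP1g WT the 6 medians lie between −0.23 and 0.12.

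In HP1a cells with Treg, Anxa1 was higher in KO than in WT (50.7, 32.5 and 46.4 CPM against 5.03, 8.21 and 4.78 CPM, log2 fold change 2.83) and Havcr2 was lower (10.9, 6.61 and 12.6 CPM against 43.1, 44.5 and 41.3 CPM, −2.12). Neither overlapped between the genotypes, and with single libraries left out Anxa1 was lost in 4 and Havcr2 in 5 of 6 fits (both without HP1a KO replicate 1 or 3 or WT replicate 1 or 2, and Havcr2 also without KO replicate 2). The interaction of genotype and Treg was 3.68 for Anxa1 (edgeR adjusted p 0.0051), which was called in 12 of 12 fits with single libraries left out and was the only gene of the 5 lists called there. With Treg, myeloid markers summed to 421, 175 and 539 CPM in HP1a KO and 27.2, 26.1 and 60.2 CPM in HP1a WT. Their part in the values of Anxa1 was not tested. The WT Treg effect differed between the lines for Anxa1 (−4.92), Ifitm3 (−3.26), Ccl4 (6.70), Havcr2 (3.28), Ccl3 (6.64), Irf8 (1.83) and Bcl6 (2.44), among others. With single libraries left out the first 4 were called in 12 of 12 fits, Ccl3 in 10, Irf8 in 4 and Bcl6 in 3. On activation from naive cells, 16 of 17 effector and homing genes rose in each of the 4 genotypes, led by Ccl5, Gzmb and Klrc1, where 12.4% to 15.7% of all genes were called higher. By contrast Ifngr2, the second chain of the interferon γ receptor, fell in all 4, by 2.94 (HP1a WT), 1.85 (HP1a KO), 2.90 (HP1g WT) and 5.49 (HP1g KO) on the log2 scale, while Ifngr1 rose. The call of Ifngr2 in HP1g WT was lost in 4 of 6 fits with single libraries left out (without naive replicate 1, 2 or 3 or Tconv replicate 2). In HP1a cells Ifngr2 lay outside the rule by which genes of the lists were named and was chosen after its values were seen.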

How the data were processed

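Naive CD4+ T cells and grafted Tconv were profiled by RNA-seq with SMART-Seq v4, which does not mark the strand, and paired-end reads. The authors trimmed the reads, aligned them with STAR to GRCm39 and quantified genes with Salmon through nf-core/rnaseq. The deposited values are Salmon's estimated counts, with no scaling or filter, and 82.9% of them were whole within 1e-06, as Salmon splits reads that several genes share. Columns were tied to samples by name, and groups were taken from the sample titles.

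Counts were rounded. Comparisons used edgeR's quasi-likelihood test (edgeR 4.0.16, R 4.3.3; robust fit, TMM, filterByExpr) on the libraries of the groups compared, with Benjamini-Hochberg adjustment over all genes tested and the study's thresholds, an adjusted p under 0.05 and a log2 fold change beyond 1. The study's tool, DESeq2 (1.42.0), was an alternative, as were RLE scaling, no filter, no threshold on the fold, 1 fit over all libraries of the lines, a block for the replicate number, inclusion of the library that was left out, and each library left out in turn. Intervals of fold changes are 95% intervals of the fit, and SDs are over libraries. The scripts were tested on simulated data.

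The members, the other lists and the rule for names (of each other list, at most the 3 called genes with the largest change per comparison) were chosen with earlier results of these data known. So was the test of the WT Treg effect between lines. For genes of like pattern, log2(CPM + 1) was correlated over grafted libraries among genes averaging 5 CPM or more, without predicted genes, RIKEN clones and antigen receptor segments. Equally numbered libraries were marked as paired where each correlation of their deviations from the group means was above 0.1 over 3 pairs. No reported test used this pairing, and replicate numbers entered only the alternative fit with the replicate block. Naive HP1a KO and WT cells (0.538 to 0.85) and HP1g WT Tconv with and without Treg (0.164 to 0.478) met this, and no source says what the numbers share. Upstream sequences are RefSeq's, in GRCm38.p6, and were matched for 8 of 9 members. They were used for letters only and no coordinate was converted. The ATAC-seq part was not analysed here.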

Additional observations from a re-analysis of the deposited data

Results flagged for a closer look

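The Treg effect in WT cells differed between the lines for 2 members by the interaction test, Il18r1 with −1.87 and Ifngr1 with −2.28 on the log2 scale. Both genes fell with Treg in HP1a WT and overlapped between the conditions in HP1g WT.

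The KO effect with Treg differed between the lines for the same members, Il18r1 with 2.30 and Ifngr1 with 1.99. With single libraries left out the call was lost in 8 of 11 fits for Il18r1 and in 6 for Ifngr1, and neither was called with the left-out library put back. These values share WT libraries with those above.

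The library left out of the comparisons, replicate 3 of HP1g KO Tconv with Treg, had 5 of the 9 members above all 35 other libraries, as it had 26.2% of the 19019 genes that passed the filter on low counts. Stat4 was at 370 CPM, where the highest other library had 296 CPM, and Il12rb1 at 329 CPM, against 128 CPM. Il12rb2 was at 66.6 CPM (49.2 CPM elsewhere), Il18r1 at 334 CPM (193 CPM) and Hlx at 3.2 CPM (1.29 CPM). By contrast its Tbx21 was at 83.3 CPM, Ifng at 34.3 CPM, Il18rap at 63.3 CPM and Ifngr1 at 142 CPM, within or below the range of the grafted libraries. The authors left this library out for its read quality, and the part of read quality in these levels was not tested.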

How the results depend on the processing

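Under the alternatives other than leaving out a library, 1867 values of the members and lists kept their direction and side of the threshold, 81 lost a call, 27 gained one and 17 changed sign. With a library left out these numbers were 1963, 222, 11 and 60. DESeq2 called more members: 3 in the interaction of the HP1a line, 2 in KO against WT of HP1a and 3 of HP1g Tconv with Treg, 1 in the Treg effect of HP1a KO, 2 in that of HP1g KO, 5 in the difference of WT Treg effects and 4 in that of KO effects. With all libraries of the lines in 1 fit, KO against WT with Treg gave 2 members in the HP1a and 1 in the HP1g line, and the difference of KO effects 4. Without the filter on low counts, HP1a KO against WT with Treg gave 1 and the difference of KO effects 1. With the left-out library put back the difference of KO effects gave 0. With single libraries left out, 2 to 5 members were called in the Treg effect of HP1a WT, 0 to 1 in HP1a KO, 0 to 1 in HP1g KO, 0 to 2 in HP1g KO against WT with Treg (2 without HP1g KO Tconv with Treg replicate 2), 1 to 4 in the difference of WT Treg effects and 0 to 3 in that of KO effects. Over all genes the calls then ran from 306 to 1450 in the Treg effect of HP1a WT, 4 to 58 in HP1a KO, 0 to 21 in HP1g KO, 0 to 115 in HP1a KO against WT and 0 to 362 in HP1g KO against WT with Treg, 75 to 448 in the difference of WT Treg effects and 51 to 903 in that of KO effects. The cause of these changes was not tested, and each fit with a library left out also had fewer libraries. RLE scaling moved no count of members beyond 1.5 times.

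The fit with the replicate block changed no count of members called, for example 5 in the Treg effect of HP1a WT and 8 in Tconv against naive cells. The sign turned with the block for Il12rb1 in HP1g KO against WT with Treg (0.079) and Il18rap in HP1g KO against WT Tconv (0.022).

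With the left-out library put back, log2 fold changes turned in HP1g KO against WT with Treg for Il12rb1 (1.06) and Il18r1 (0.20), in the Treg effect of HP1g KO for Il12rb1 (0.76), Hlx (0.58) and Il18r1 (0.47), in the interaction of the HP1g line for Hlx (1.102), Il12rb1 (1.01), Stat4 (0.20), Il18r1 (0.085) and Il12rb2 (0.065), and in the difference of KO effects for Il12rb1 (−0.84), Il12rb2 (−0.18) and Ifng (0.17). Without the filter Ifngr1 (−0.021) and Stat4 (−0.002) turned in HP1g KO against WT naive cells. Leaving out single libraries also turned values, all of members that were not called in the comparison. In KO against WT in naive HP1a cells Tbx21 ran from −0.26 to 1.31. In KO against WT in naive HP1g cells Ifngr1 ran from −0.096 to 0.21, Il12rb2 ran from −0.021 to 1.55, Il18rap ran from −0.14 to 0.52 and Stat4 ran from −0.058 to 0.12. In KO against WT in HP1a Tconv Hlx ran from −0.26 to 0.16 and Stat4 ran from −0.088 to 0.018. In KO against WT in HP1a Tconv with Treg Il12rb1 ran from −0.07 to 0.48 and Il12rb2 ran from −0.63 to 0.10. In KO against WT in HP1g Tconv Ifng ran from −0.18 to 0.023, Ifngr1 ran from −0.16 to 0.013, Il12rb1 ran from −0.15 to 0.21, Il12rb2 ran from −0.32 to 0.18, Il18r1 ran from −0.097 to 0.20 and Il18rap ran from −0.22 to 0.18. In KO against WT in HP1g Tconv with Treg Il12rb1 ran from −0.39 to 0.085. In the Treg effect in HP1a WT Ifng ran from −0.45 to 0.079 and Stat4 ran from −0.20 to 0.043. In the Treg effect in HP1a KO Ifng ran from −0.55 to 0.18 and Il18r1 ran from −0.49 to 0.017. In the Treg effect in HP1g WT Ifng ran from −0.048 to 0.28, Ifngr1 ran from −0.36 to 0.002 and Stat4 ran from −0.008 to 0.085. In the Treg effect in HP1g KO Stat4 ran from −0.064 to 0.12. In the interaction in the HP1a line Ifng ran from −0.47 to 0.29, Il12rb2 ran from −0.12 to 0.61 and Stat4 ran from −0.21 to 0.045. In the interaction in the HP1g line Hlx ran from −0.51 to 0.32, Il12rb1 ran from −0.40 to 0.052 and Stat4 ran from −0.12 to 0.088. In the difference of WT Treg effects Stat4 ran from −0.23 to 0.013. In the difference of KO effects Ifng ran from −0.74 to 0.048.

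Depth did not limit the 8 members above 1 CPM in grafted cells, but it limits Hlx, and in naive cells Ifng, Tbx21, Il12rb2 and Il18rap, whose ratios rest on 10 to 121 naive counts. With 2 or 3 libraries a group, many intervals are wider than 1 on the log2 scale.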

Other observations

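Some factors and cytokines of other helper fates, set beside the members, differed between the KO effects of the lines with Treg. The difference, HP1a line minus HP1g line, was −7.50 on the log2 scale for Il10 and −2.64 for Bcl6. Il10 was at 3.23, 5.17 and 12.3 CPM in HP1a KO and at 53.6, 45.1 and 124 CPM in HP1a WT with Treg, and at 221 and 20.9 CPM in HP1g KO against 15.9, 4.64 and 1.45 CPM in HP1g WT. Among the effector genes Ccl3 (−8.88), Ccl4 (−7.64) and Havcr2 (−4.96) differed in the same direction as Il10, and in the study's Th1 list Anxa1 (5.18), Mmp9 (4.25) and Ifitm3 (3.86) differed in that of Ifngr1. In HP1g KO with Treg, replicate 1 carried most of the Il10, Ccl3 and Havcr2 RNA (221, 532 and 104 CPM against 20.9, 48.8 and 17.4 CPM in replicate 2) and had the lower Tbx21, Il12rb2, Il18r1 and Il18rap of the 2 libraries. With single libraries left out, the call was lost in 7 of 11 fits for Il10, 9 for Bcl6, 4 for Ccl3, 5 for Ccl4, 2 for Havcr2, 6 for Ifitm3 and 1 each for Anxa1 and Mmp9. None of these 8 genes was called with the left-out library put back, although all kept their direction.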
